A study of Mus musculus with 14 samples.

Results

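The Robo, Slit, Dcc and Unc5 guidance genes were followed through the development of pontine nuclei (PN) neurons in single-cell RNA sequencing (scRNA-seq) of mouse *Atoh1*-lineage cells. The list held 10 genes, chosen by name, of 31054 in the deposited matrices: the ligand genes *Slit1*, *Slit2* and *Slit3*, the receptor genes *Robo1*, *Robo2* and *Robo3*, the netrin receptor gene *Dcc*, and *Unc5b*, *Unc5c* and *Unc5d*. All 10 were found. The study sorted tdTomato-positive, DAPI-negative cells of C57BL/6J mice and sequenced 14 libraries on the 10x Chromium platform. At E14.5 and at E18.5, 3 hindbrains came from control embryos and 3 from *Atoh1*S193A/- littermates, with 1 embryo per library. At postnatal day 5 (P5), 2 control libraries were made from dissected PN, each pooled from several pups.

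Control mice were *Atoh1*Cre/+ and carried the Cre-dependent reporter *Rosa* lsl-tdTomato, and the Cre replaces the coding region of *Atoh1* on that allele, so controls had only 1 functional copy. *Atoh1*S193A/- mice carried the same Cre allele and reporter with the hypomorphic S193A allele in place of the wild-type one. S193A changes 1 residue of the protein, so the *Atoh1* mRNA level does not check the genotype labels. Every group thus shared a null *Atoh1* allele, and the reporter marks cells with a history of Cre expression from the *Atoh1* locus, which includes cells outside the PN lineage. The kept P5 cells also held clusters led by genes of other lineages, among them one of 604 cells led by the microglial genes *P2ry12* and *Cx3cr1*.

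PN neurons are born in the rhombic lip of the hindbrain and migrate tangentially around it to the ventral pons. Slits are secreted proteins that repel cells and axons through Robo receptors. Netrin-1 attracts through DCC and repels through UNC5 receptors. ROBO3 differs from its relatives in that the mammalian form does not bind Slits with high affinity and takes part in netrin-1 attraction together with DCC, and its loss is known to disturb the midline crossing of hindbrain neurons. The genes were therefore described in the order ligands, Robo receptors, *Dcc* and *Unc5* receptors, and from progenitors to differentiated neurons.

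Over the series, 150188 barcodes gave 80250 cells after filtering and doublet removal, with 1.08e+08 to 2.37e+08 unique molecular identifiers (UMIs) per library and 3248 to 8726 kept cells. Any pair of libraries shared 13 to 67 barcodes. PN cells were found by clustering without the 10 genes, their partner genes and the 4 check genes *Ccnd1*, *Atoh1*, *Nhlh1* and *Mapt*. They were called progenitor-like, intermediate progenitor-like, migrating neuron-1-like, migrating neuron-2-like and differentiated neuron-like at E14.5 from marker lists. The 4 check genes followed these names in the control libraries. *Ccnd1*, a cell cycle gene, was highest in progenitor-like cells at 1287 ± 316 in UMI counts-per-million (CPM; SD, n = 3). *Atoh1* was highest in intermediate progenitor-like cells at 605 ± 121 CPM, *Nhlh1* in migrating neuron-2-like cells at 225 ± 31.1 CPM, and the neuronal gene *Mapt* in differentiated neuron-like cells at 1209 ± 189 CPM. Levels below are CPM of a gene over the summed cells of a state in a library, so fewer expressing cells and less RNA per cell cannot be told apart. The library was the replicate.

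The 250 bases before a start that RefSeq annotates are shown for 5 of the genes whose levels the results turn on, because ATOH1 is a basic helix-loop-helix factor and such factors bind E-boxes of the form CANNTG. The sequences are from RefSeq on build GRCm38.p6, read 5′ to 3′ on the strand of the gene, with CANNTG matches in capitals.
*Slit2*, chr5:47982905-47983154, plus strand: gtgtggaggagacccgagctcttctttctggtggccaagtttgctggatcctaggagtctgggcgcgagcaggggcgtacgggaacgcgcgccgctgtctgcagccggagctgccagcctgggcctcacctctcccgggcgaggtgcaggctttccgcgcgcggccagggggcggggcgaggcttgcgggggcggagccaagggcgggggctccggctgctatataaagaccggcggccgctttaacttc
*Slit3*, chr11:35121206-35121455, plus strand: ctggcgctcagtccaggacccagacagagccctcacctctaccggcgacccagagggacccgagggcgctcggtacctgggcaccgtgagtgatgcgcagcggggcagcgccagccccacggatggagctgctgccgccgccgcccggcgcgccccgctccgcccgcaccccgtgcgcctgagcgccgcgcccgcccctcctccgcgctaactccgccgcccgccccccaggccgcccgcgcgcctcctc
*Robo2*, chr16:74411826-74412075, minus strand: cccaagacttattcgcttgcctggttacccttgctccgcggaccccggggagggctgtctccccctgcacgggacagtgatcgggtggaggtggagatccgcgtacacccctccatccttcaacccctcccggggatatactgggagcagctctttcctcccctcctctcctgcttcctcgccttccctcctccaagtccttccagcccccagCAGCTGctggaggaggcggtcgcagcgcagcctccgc
*Robo3*, chr9:37433176-37433425, minus strand: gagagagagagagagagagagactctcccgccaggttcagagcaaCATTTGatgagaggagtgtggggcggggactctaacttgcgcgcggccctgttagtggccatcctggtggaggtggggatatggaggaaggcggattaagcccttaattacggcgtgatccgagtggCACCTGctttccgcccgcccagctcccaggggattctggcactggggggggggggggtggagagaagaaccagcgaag
*Robo1*, chr16:72662899-72663148, plus strand: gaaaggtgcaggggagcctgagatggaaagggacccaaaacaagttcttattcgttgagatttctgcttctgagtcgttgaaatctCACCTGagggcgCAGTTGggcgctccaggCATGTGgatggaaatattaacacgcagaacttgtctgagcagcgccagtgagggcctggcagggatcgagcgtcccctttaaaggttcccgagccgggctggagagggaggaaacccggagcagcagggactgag
The *Robo1* stretch held 3 CANNTG matches, that of *Robo3* held 2 and that of *Robo2* held 1, which has the letters CAGCTG. RefSeq had 3 starts for *Robo2*, and the stretches before the other 2, further upstream, each held 1 CANNTG match and 0 CAGCTG. Set against the gene spans given below, the *Robo1* stretch lies wholly inside the span and those of *Slit2*, *Slit3* and *Robo3* lie partly inside it, since the starts of the annotations differ. Those of *Slit2* and *Slit3* held 0. Since CANNTG reads the same on both strands, 1 strand was searched. Of 32851 RefSeq promoter entries of the same length, 66.2% held CANNTG, with a mean of 1.16 matches, and 13.0% held CAGCTG. RefSeq entries were matched for 7 of the 10 genes and not for *Slit1*, *Dcc* and *Unc5d*. A match describes these letters only.

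*Slit2* mRNA was highest in E14.5 progenitors and lower in the states that follow, *Slit1* was highest 1 step later, and *Slit3* was near 0 in the E14.5 lineage. *Slit2* was at 132, 129.5 and 89.6 CPM in the progenitor-like cells of control libraries 1, 2 and 3. Intermediate progenitor-like cells had 42.0, 50.4 and 42.8 CPM and migrating neuron-1-like cells 32.8, 37.2 and 37.4 CPM. Migrating neuron-2-like cells (20.3, 26.2 and 23.4 CPM) and differentiated neuron-like cells (18.7, 28.5 and 22.7 CPM) overlapped, and all other neighbouring states of *Slit2* were separate in their libraries. *Slit2* (5:47983138-48307733, plus strand, GRCm38) spans the microRNA gene *Mir218-1*, which is on the same strand.

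*Slit1* (19:41600257-41743665, minus strand) was at 32.1, 41.5 and 56.4 CPM in the intermediate progenitor-like cells of control libraries 1 to 3. Its progenitor-like values were 9.53, 19.7 and 9.96 CPM and its migrating neuron-1-like values 7.17, 14.8 and 15.9 CPM. The intermediate progenitor-like libraries all lay above both neighbours, which overlapped each other. The level reached 0.812 ± 0.206 CPM (n = 3) in differentiated neuron-like cells, with 19 UMIs in all.

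*Slit3* (11:35121224-35708507, plus strand, spanning *Mir218-2*) was at 2.72, 5.12 and 3.11 CPM in control progenitor-like cells at E14.5, from 22 UMIs. No UMI was counted in the intermediate progenitor-like cells of the 3 control libraries, and the later states were at or below 1.13 CPM in each. These values were too low to order the later states.

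Among the Robo receptors, *Robo2* and *Robo3* were highest in different states, *Robo2* before *Robo3*. *Robo2* (16:73891839-74411825, minus strand) was at 17, 30.7 and 16.8 CPM in progenitor-like cells. Intermediate progenitor-like cells had 200.1, 188 and 151 CPM. It was at 224, 205 and 206 CPM in migrating neuron-1-like cells, with every library above those of the intermediate progenitors. It was then at 87.2, 101 and 87.1 CPM in migrating neuron-2-like cells and at 94.9, 71.1 and 97.6 CPM in differentiated neuron-like cells, and these last 2 states overlapped. The mean in migrating neuron-1-like cells was 9.85 times that in progenitor-like cells.

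*Robo3* (9:37415669-37433246, minus strand) was at 8.17, 12.6 and 13.1 CPM in progenitor-like cells. Its intermediate progenitor-like values were 31.8, 46.7 and 19.99 CPM. It reached 217, 339 and 174 CPM in migrating neuron-1-like cells and 528, 624 and 486 CPM in migrating neuron-2-like cells. The highest state stood clear of the next in every control library, by 2.24 times in the mean. In differentiated neuron-like cells *Robo3* was at 77.9, 403 and 81.0 CPM, so the second library stood far above the other two. Reads at the end of the transcript do not tell the *Robo3* splice forms apart.

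The second *Atoh1*S193A/- library showed the same high *Robo3* level in differentiated neuron-like cells, 483 CPM, against 91.4 and 84.2 CPM in libraries 1 and 3. *Dcc* had the same pattern there, at 38.8 CPM in control library 2 and 58.8 CPM in *Atoh1*S193A/- library 2, and at 8.57 to 11.5 CPM in the other 4. These 2 libraries are littermates. Their differentiated neuron-like cells were placed earlier in pseudotime, at mean percentile ranks of 76.9 and 74.4 against 86.0 to 88.1 in the other 4. The part of this placement in the *Robo3* and *Dcc* levels was not tested.

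*Robo1* (16:72308306-73046095, plus strand) varied least between the states, with a highest mean 3.53 times the lowest. Its control means ran from 7.05 ± 3.78 CPM in progenitor-like cells to 24.9 ± 4.68 CPM in migrating neuron-2-like cells (n = 3 each). Every neighbouring pair of states overlapped, and the highest state (21.3, 30.2 and 23.2 CPM) was separate from the lowest (4.76, 11.4 and 4.98 CPM).

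*Dcc* (18:71253634-72351069, minus strand), which encodes the attractive netrin-1 receptor, was high through the intermediate and migrating states and low at both ends. It was at 19.7, 25.6 and 26.1 CPM in progenitor-like cells. Intermediate progenitor-like cells had 100.2, 126 and 125 CPM, and migrating neuron-1-like cells 134, 164 and 161 CPM. Migrating neuron-2-like cells had 99.7, 150.1 and 118 CPM, which overlapped both of these. Differentiated neuron-like cells had 8.99, 38.8 and 8.76 CPM, below every library of the migrating states, and overlapped the progenitors.

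The *Unc5* genes, whose products mediate repulsion by netrin-1, did not share 1 pattern. *Unc5c* (3:141465216-141834924, plus strand) was at 62.6, 101 and 52.3 CPM in progenitor-like cells, which overlapped the intermediate progenitor-like cells at 53.6, 59.3 and 72.1 CPM. It was at 13.2, 24.1 and 16.7 CPM and at 14.4, 18.7 and 21.7 CPM in the migrating states, and stood at 185, 121 and 159 CPM in differentiated neuron-like cells. The control libraries of both migrating states thus lay below every library of the other 3 states.

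*Unc5d* (8:28646717-29219636, minus strand) was higher in each later state of the neurons, from 1.43 ± 0.856 CPM in progenitor-like cells to 4.01 ± 0.895 and 11.5 ± 1.05 CPM in the 2 migrating states and 23.2 ± 7.74 CPM in differentiated neuron-like cells (n = 3 each). *Unc5b* (10:60762593-60831581, minus strand) was low throughout and was highest in migrating neuron-2-like cells at 15.7, 17.1 and 16.4 CPM, against 2.20 ± 0.210 CPM in differentiated neuron-like cells. The control libraries of the highest state overlapped those of the next state in *Robo1* and *Dcc* and lay above them in the other genes. For *Slit3* and *Unc5b* the highest state was itself under 20 CPM in the mean. How often all genes show such a separation was not counted, so it is no trait of this list. The *Atoh1*S193A/- libraries gave the same highest state for each of the 10 genes. With finer clusters (Leiden resolution 2.0) 9 of the 10 kept it, and *Unc5b* was then highest in migrating neuron-1-like cells.

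**Figure D1:**
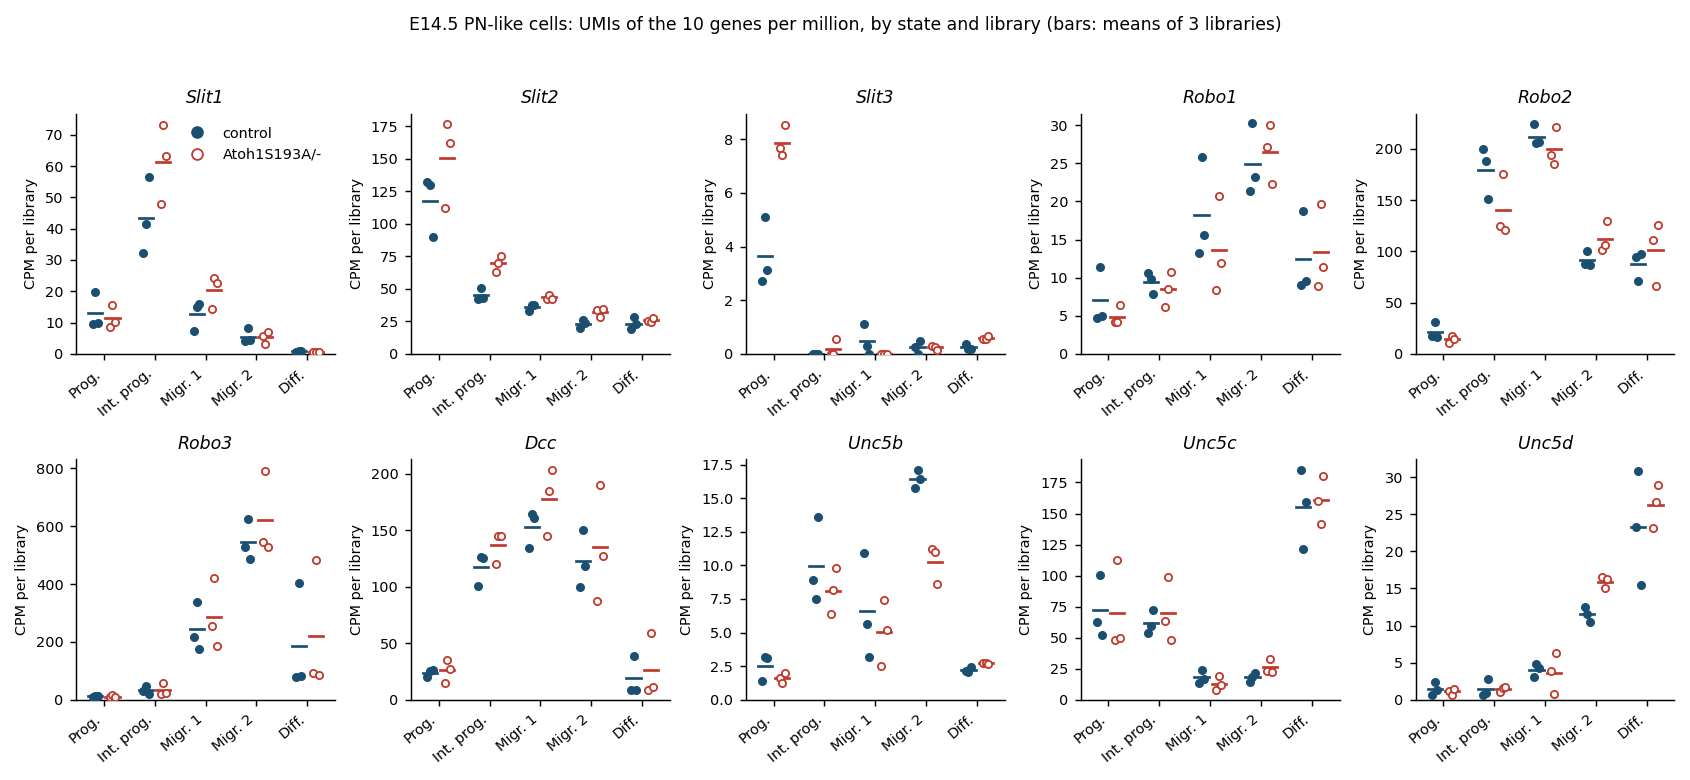
Level of each of the 10 guidance genes (CPM, vertical axis) in the 5 E14.5 states (horizontal axis), with a point per library for control and *Atoh1*S193A/- and a bar at the mean. *Robo3* peaks in migrating neuron-2-like cells at 546 ± 71.0 CPM in controls while *Unc5c* is lowest in both migrating states.

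Ordering the E14.5 cells by diffusion pseudotime, computed without these genes, gave the same succession on a finer scale. With the cells cut into 10 bins of equal number, *Slit1* peaked in bin 3, *Robo2* in bin 4 and *Robo3* in bin 7 in each of the 6 libraries. *Robo2* reached 235 CPM in bin 4 of the control mean, where *Robo3* was at 61.1 CPM. *Robo3* reached 608 CPM in bin 7, where *Robo2* was at 86.3 CPM. *Dcc* peaked in bin 5 in the 3 control libraries and in bin 5, 6 and 4 in the *Atoh1*S193A/- libraries.

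Low *Dcc* and high *Unc5c* fell in the same late bins. In the control means *Dcc* was at 111 CPM in bin 7, 39.98 in bin 8, 10.7 in bin 9 and 6.05 in bin 10. *Unc5c* was at 24.4, 78.0, 168 and 208 CPM in these bins. *Robo3* was still at 397 CPM in bin 8. In bin 10 it was at 15.6, 101 and 17.3 CPM in control libraries 1, 2 and 3, and library 2 had only 19 cells there. *Unc5b* peaked at 16.4 CPM in bin 6. The bins share libraries and cells of neighbouring states, so these levels are a description of order with no test.

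**Figure D2:**
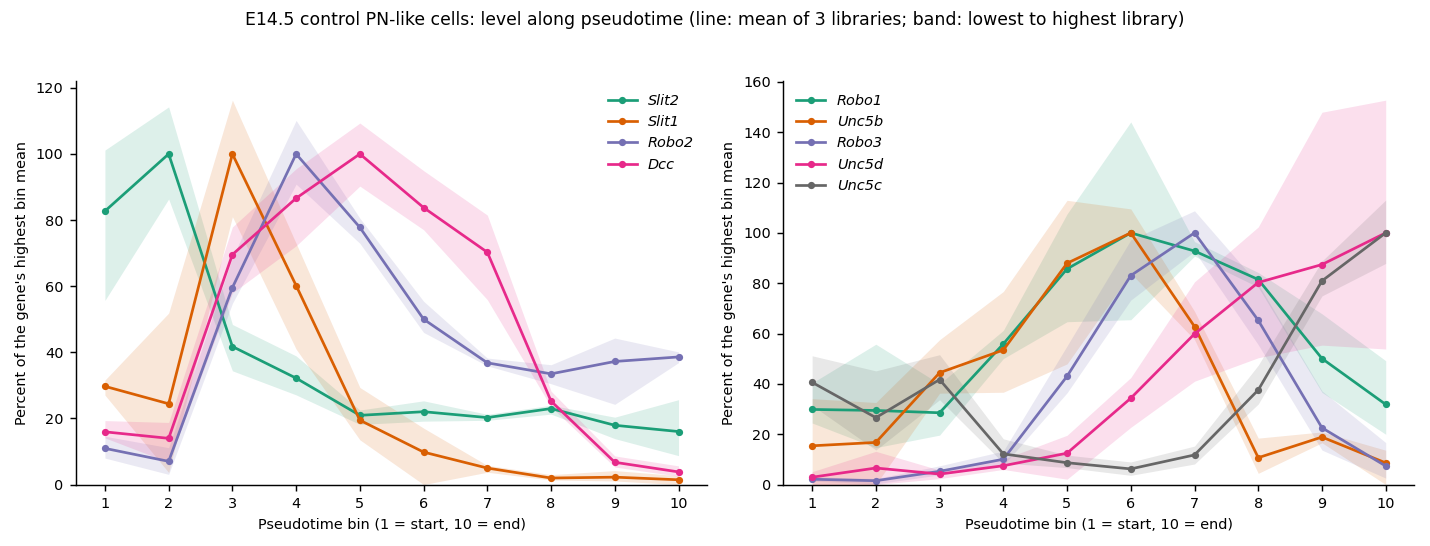
Level of each gene other than *Slit3* over 10 equal bins of E14.5 pseudotime (horizontal axis) in control cells. The vertical axis is the percent of the gene's highest bin mean. Lines give the mean of 3 control libraries, and bands run from the lowest to the highest library. *Slit2* is highest at 128 CPM in bin 2, *Robo2* and *Robo3* peak in bins 4 and 7, and *Unc5c* ends at 208 CPM in bin 10 of the controls.

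Shares of cells with a UMI were compared after thinning each cell to 5000 UMIs. *Robo3* was seen in 88.4% ± 2.43 of migrating neuron-2-like control cells (SD, n = 3 libraries) and in 5.96% ± 3.05 of progenitor-like cells, and in 97.9% and 14% before thinning. Median depth was 16490 to 19260 UMIs per cell in the first state and 19000 to 21230 in the second. In E18.5 differentiated neuron-like cells the thinned share of *Robo3* was 0.953% ± 0.683. A background share from free RNA was not estimated. *Robo2* was seen in 60.6% ± 4.62 and *Dcc* in 48.2% ± 3.63 of migrating neuron-1-like cells.

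*Robo3* and *Dcc*, whose products act together in netrin-1 attraction, were compared cell by cell on thinned counts. This was done within the states that had enough cells with and without a *Robo3* UMI. In control migrating neuron-1-like cells, *Dcc* was seen in 49.1% ± 3.8 of cells with a *Robo3* UMI and in 47.7% ± 4.11 of cells without one. In migrating neuron-2-like cells these shares were 42.5% ± 8.24 and 39.9% ± 14.8. Over all kept E14.5 cells they were 30.0% ± 1.37 and 15.0% ± 0.298. The gap was thus larger over all cells than within either E14.5 migrating state, where it was less than the spread between libraries. It was also wider in E14.5 differentiated neuron-like cells, at 12.8% ± 5.73 and 4.02% ± 2.27, and over all E14.5 PN-like cells, at 35.3% ± 3.92 and 21.4% ± 6.31. At E18.5 the control shares differed by more than that spread, at 17.2% ± 4.14 and 5.52% ± 2.60 in migrating neuron-like cells and at 56.5% ± 1.14 and 8.31% ± 3.78 in the PN-like cells left unnamed. The unnamed cells join several clusters. In *Atoh1*S193A/- migrating neuron-like cells at E18.5 the shares were 15.6% ± 5.89 and 10.7% ± 2.02.

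At E18.5 fewer PN-like cells were in the early states, and the order of the states within a gene was only in part that of E14.5. Only 2 control libraries had at least 10 intermediate progenitor-like cells (19 and 13). There *Dcc* was at 135 and 213 CPM, *Robo2* at 271 and 235 CPM and *Robo3* at 51.2 and 49.8 CPM. In the single migrating neuron-like state, *Robo3* was at 199, 149 and 216 CPM and *Robo2* at 107, 125 and 102 CPM. *Robo3* was thus above its intermediate progenitor-like values, as at E14.5. *Dcc* had a control mean of only 26.0 CPM there. *Robo2* and *Unc5b* had control means of 111 and 1.80 CPM there and of 161 and 5.59 CPM in differentiated neuron-like cells. At E14.5 *Robo2* was instead higher in migrating neuron-1-like and *Unc5b* in migrating neuron-2-like than in differentiated neuron-like cells. *Nhlh1* was at 98.4 ± 9.53 CPM in these cells and 3.31 ± 1.67 CPM in differentiated neuron-like cells (n = 3 control libraries). The migrating neuron-like state joined clusters 2 and 8, of 298 and 176 cells, and the check genes did not follow its name evenly. As the mean natural log of scaled counts plus 1, *Nhlh1* was 0.145 in cluster 2 and 0.904 in cluster 8, and *Mapt* was 2.75 and 2.42. The larger cluster was thus low in *Nhlh1*. The values were 1.51 for *Nhlh1* and 1.60 for *Mapt* in cluster 6, which met no name.

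*Robo3* reached its highest E18.5 level among the PN-like cells in that unnamed cluster 6, led by *Ren1*, *C1ql1* and *Tspan18*, and with 196 cells in all. *Robo3* was there at 660.3, 658 and 716 CPM in the controls and at 852, 803 and 885 CPM in *Atoh1*S193A/-. *Dcc* was at 182, 202 and 121 CPM and at 181, 193 and 205 CPM, and overlapped its intermediate progenitor-like values. Between the genotypes 0 of 6 genes of the list tested passed in this cluster in edgeR with or without the littermate pairs as a block, where 0.264% and 0.0529% of all genes did, and 3 had an unadjusted p under 0.05 without it. These were *Robo3* (log2 change 0.29), *Slit2* (0.63) and *Unc5d* (−3.42, SE 0.97, adjusted p = 0.351), the last from 16 UMIs in controls and 1 in *Atoh1*S193A/-. *Unc5d* thus met the limit on detected cells only through the controls. The share of all genes with such an unadjusted p is not given, so the count is no trait of this list. In differentiated neuron-like cells of the same libraries *Robo3* was at 4.46, 2.20 and 1.77 CPM and *Dcc* at 4.85, 5.14 and 5.23 CPM.

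In control differentiated neuron-like cells *Robo3*, *Dcc* and *Slit2* fell between E14.5 and E18.5, and *Slit3*, *Unc5b*, *Robo2* and *Unc5c* rose. In an edgeR quasi-likelihood fit over the 3 stages, 7 of the 10 genes passed an adjusted p of 0.05 and an absolute log2 change of 0.25, where 56.2% of all 11280 genes tested did. The list's share is thus near that of all genes. Its median log2 change was 0.25, against 0.06 over all genes.

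The largest changes were in *Robo3* and *Slit3*. *Robo3* fell by 6.28 on the log2 scale (SE 1.10, adjusted p = 0.00502), with the E14.5 libraries at 77.9, 403 and 81.0 CPM and the E18.5 ones at 1.77 to 4.46 CPM. Without E14.5 control library 2 it fell by 5.07 (adjusted p = 4.47e-10). *Slit3* rose by 5.94 (SE 0.29, adjusted p = 5.69e-08), from 0.383, 0.187 and 0.168 CPM, 5 UMIs in all, to 15.9, 16.1 and 13.8 CPM. Since *Slit3* was near 0 at E14.5, the size of its change depends on the fit, and the CPM values are the firmer description.

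Smaller increases were called for *Unc5b* (1.15, SE 0.27, adjusted p = 0.00288), *Robo2* (0.76, SE 0.12, adjusted p = 0.00024) and *Unc5c* (0.51, SE 0.13, adjusted p = 0.00444). *Unc5c* was at 237, 236 and 237 CPM at E18.5. *Slit2* fell by 0.68 (SE 0.20, adjusted p = 0.0128), and without E18.5 control library 3 its adjusted p was 0.0820. *Dcc* fell by 1.93 (SE 0.68, adjusted p = 0.0474), and this call was lost in 8 of the alternatives, among them the removal of any E18.5 or P5 library. Its size rested on E14.5 control library 2, without which *Dcc* fell by 0.90 (SE 0.22, adjusted p = 0.00135). *Robo1* (−0.01), *Slit1* (0.57) and *Unc5d* (−0.43) did not pass.

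From E18.5 to P5 differentiated neuron-like cells, 4 of the 10 passed, where 50.3% of all genes did. *Slit1* rose by 1.87 (SE 0.35, adjusted p = 0.000939), from 1.55, 0.245 and 1.69 CPM to 5.29 and 4.08 CPM. *Slit3* rose by 0.49 (SE 0.14, adjusted p = 0.0131), to 20.3 and 19.9 CPM. *Unc5d* fell by 1.98 (SE 0.34, adjusted p = 0.00136), to 4.87 and 3.88 CPM, and *Unc5c* fell by 0.52 (SE 0.14, adjusted p = 0.00838), to 157 and 156 CPM. *Slit3* lost its call without either P5 library or without E18.5 control library 3, and *Unc5c* lost it without either P5 library, with adjusted p from 0.0569 to 0.0841. P5 tissue was dissected PN and the embryonic tissue whole hindbrain, so stage and dissection cannot be told apart. PN-like cells that met no name at E18.5 or P5 were not counted as differentiated neuron-like.

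**Figure D3:**
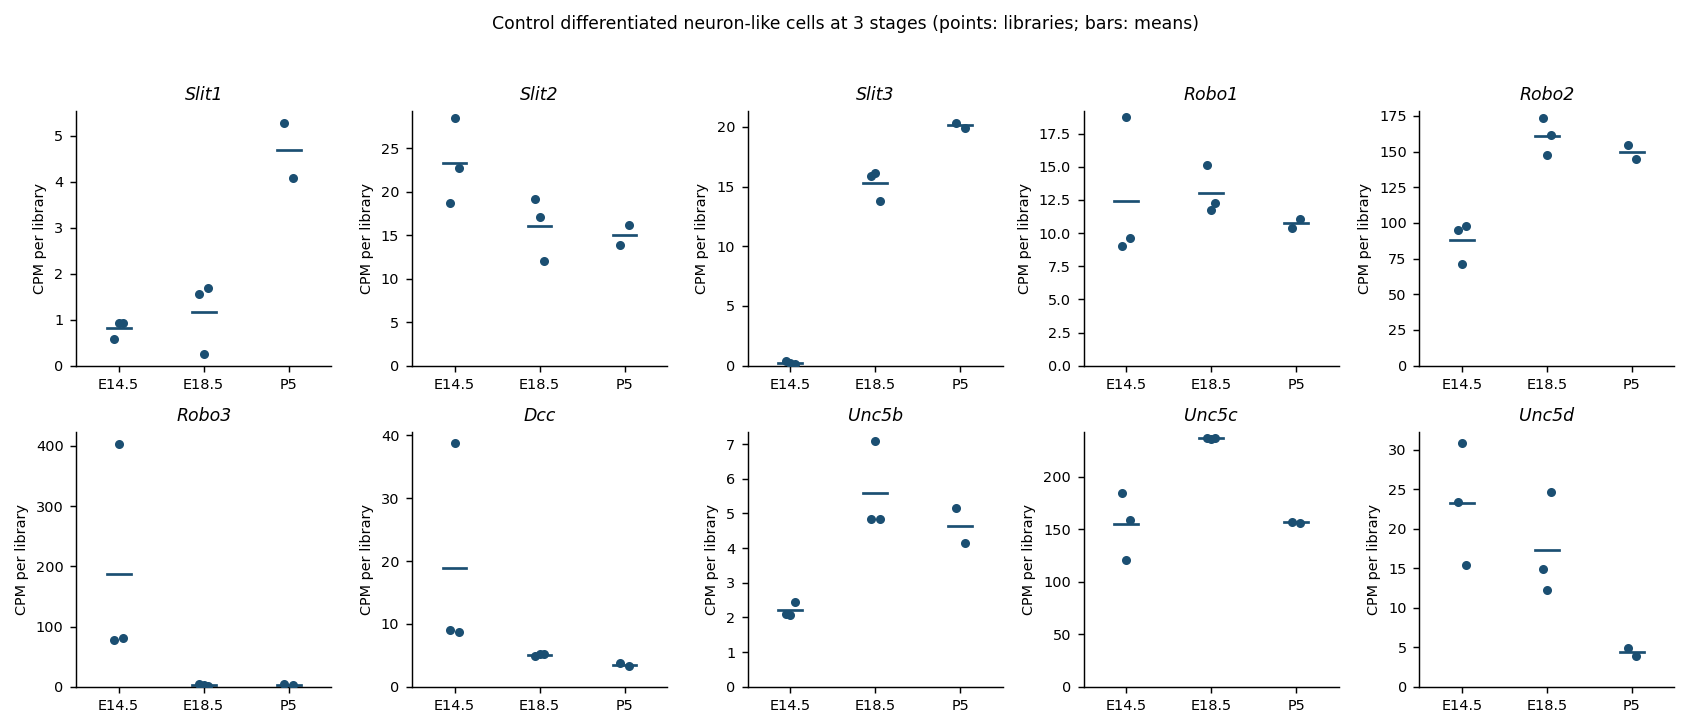
Level of each gene (CPM, vertical axis) in control differentiated neuron-like cells at E14.5, E18.5 and P5 (horizontal axis), a point per library and a bar at the mean. *Robo3* goes from 77.9 to 403 CPM at E14.5 to under 5 CPM later, while *Slit3* goes from under 1 CPM to 19.9 to 20.3 CPM at P5.

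Differentiated neurons were not uniform for these genes. At E18.5 the subtypes named from the study's marker lists were called ePN1-like to ePN4-like. *Slit3* was at 22.7, 33.5 and 30.2 CPM in ePN1-like and 24.0, 19.3 and 18.4 CPM in ePN3-like control cells, against 0.578, 0 and 1.90 CPM in ePN2-like cells. *Robo2* was at 256, 229 and 256 CPM in ePN3-like cells, 154, 120.3 and 138 CPM in ePN1-like cells and 81.0, 83.6 and 94.7 CPM in ePN2-like cells, with no overlap. *Unc5c* had another order, with ePN2-like cells highest at 324, 339 and 295 CPM and ePN1-like (187 to 215 CPM) and ePN3-like cells (189 to 215 CPM) overlapping. The ePN2-like cells thus had the lowest *Slit3* and *Robo2* and the highest *Unc5c* of these 3 subtypes in every control library.

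*Unc5b* was at 10.6, 22.3 and 14.6 CPM in ePN1-like cells and at no more than 3.90 CPM in any control library of the ePN2-like and ePN3-like cells. *Robo1* was at 3.67 to 6.94 CPM in ePN2-like cells, below every library of ePN1-like (13.6 to 23.2 CPM) and ePN3-like cells (14.3 to 22.3 CPM). ePN4-like cells passed 20 cells in only 1 control library, where *Unc5d* was at 100.1 CPM. The 3 *Atoh1*S193A/- libraries had 56.5, 74.0 and 80.6 CPM of *Unc5d* in these cells, against 8.42 to 21.4 CPM in their other 3 subtypes. They held 15, 15 and 42 ePN4-like cells, so only the third passed 20 cells.

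At P5 the 6 subtypes PN1-like to PN6-like again differed. In libraries 1 and 2, 1158 of 4988 and 967 of 3107 PN-like cells met no name and were left out. The rankings below are thus among these 6 subtypes only. *Robo2* was highest in PN4-like cells at 271 and 252 CPM, followed by PN6-like cells at 197 and 168 CPM, and lowest in PN5-like cells at 48.2 and 46.3 CPM. *Slit3* was highest in PN3-like cells at 36.7 and 38.7 CPM and lowest in PN6-like (8.33 and 5.50 CPM) and PN1-like cells (7.97 and 7.30 CPM), which overlapped. PN3-like cells also had the highest *Unc5b*, at 14.6 and 11.6 CPM, and the highest *Robo1*, at 19.1 and 21.4 CPM. *Slit3*, *Unc5b* and *Robo1* thus shared their highest subtype at P5.

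*Unc5c* ran from 106 and 113 CPM in PN1-like to 212 and 201 CPM in PN4-like cells, and *Unc5d* was highest in PN6-like cells at 12.1 and 8.30 CPM. *Robo3* was at 5.64 CPM or lower in every P5 subtype and library. With 2 libraries a subtype, these are values with no test.

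**Figure D4:**
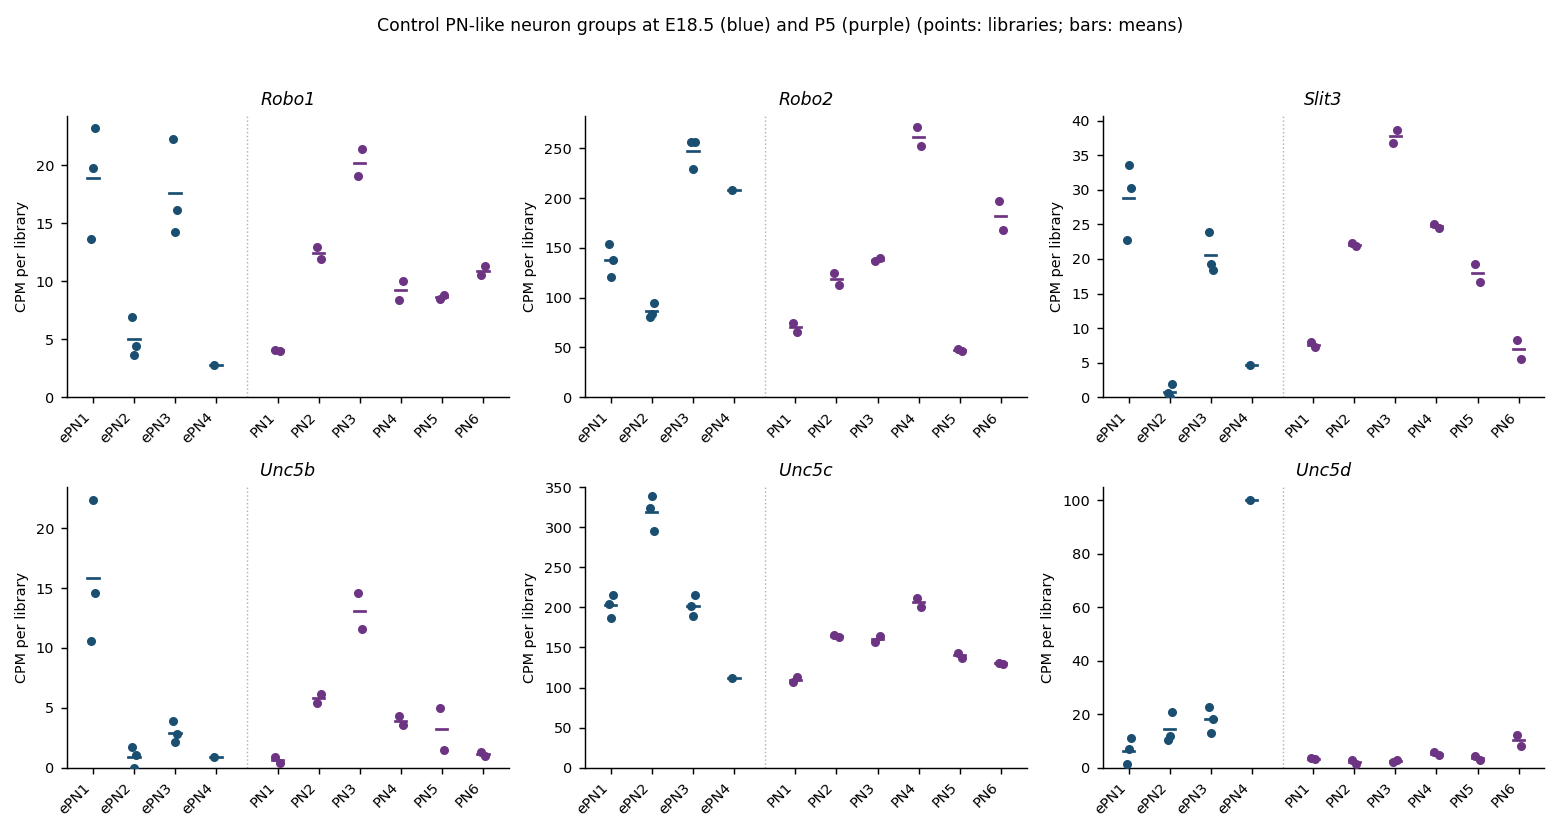
Level of *Robo1*, *Robo2*, *Slit3*, *Unc5b*, *Unc5c* and *Unc5d* (CPM, vertical axis) in control cells of the E18.5 ePN-like and P5 PN-like subtypes (horizontal axis). Points are libraries and bars are means. At E18.5 *Slit3* is at 1.90 CPM or lower in ePN2-like control cells and at 18.4 to 33.5 CPM in ePN1-like and ePN3-like cells, and at P5 *Robo2* is highest in PN4-like cells at 252 to 271 CPM.

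The genotypes were then compared within each state, to ask whether partial loss of *Atoh1* function changed these genes in cells of 1 developmental state. At E14.5, 0 of 38 tests of the 10 genes over the 5 states passed in edgeR. An unadjusted p under 0.05 was seen in 8 of them. The share of all genes with such a p is not given, so this count is no trait of the list. Of all genes tested, 0.0099% passed in progenitor-like, 0.0764% in intermediate progenitor-like and 0.0316% in migrating neuron-1-like cells, and 0% in the last 2 states. With the littermate pairs as a block 2 of the 38 passed, both in intermediate progenitor-like cells, where 1.38%, 2.15%, 0.506%, 0.199% and 0.0102% of all genes passed in the 5 states in order. Without the block the log2 changes of the 10 genes ran from −0.75 to 1.00, with a lowest adjusted p of 0.163. E14.5 control libraries 1 and 2 were counted with an earlier Cell Ranger version than the other libraries. By DESeq2, 0 of these tests passed as well, and its count over all genes is given further below for intermediate progenitor-like cells. At E14.5 in differentiated neuron-like cells, 68% of genes simulated with a log2 change of 1 and 96% of those with a log2 change of 2 were recovered by this test. The simulated libraries were drawn independently, with no shared deviation of littermates. Control libraries had 257 to 670 cells in that state and 72 to 113 in progenitor-like cells. The other states were not simulated, so recovery there is not known.

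In some pairs of gene and E14.5 state the genotypes did not overlap, and none of these pairs passed without the block. Some lay near 0, such as *Slit3* in differentiated neuron-like cells, with means of 0.246 CPM in controls and 0.583 CPM in *Atoh1*S193A/-. How often this happens over all genes was not counted, so such pairs are described only. The largest log2 changes were not in *Slit2*. *Slit3* in progenitor-like cells was at 2.72, 5.12 and 3.11 CPM in controls and 7.66, 7.42 and 8.53 CPM in *Atoh1*S193A/-, a log2 change of 1.00 (SE 0.32, adjusted p = 1.00 in edgeR, 0.188 with the block). *Unc5b* in migrating neuron-2-like cells was at 15.7, 17.1 and 16.4 CPM against 11.2, 10.99 and 8.61 CPM, a log2 change of −0.75 (SE 0.17, adjusted p = 0.897, and 0.133 with the block). The genotypes did not overlap for either gene, and neither passed.

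*Slit2* had no overlap in 3 of the 5 states, which met the rule for describing a change singly. How many of all genes do so was not counted. In intermediate progenitor-like cells it was at 42.0, 50.4 and 42.8 CPM in controls and at 63.2, 70.0 and 75.3 CPM in *Atoh1*S193A/- libraries, so the groups did not overlap. The log2 change was 0.62 (SE 0.14, adjusted p = 0.163 in edgeR). With the block it was 0.61 (SE 0.12, adjusted p = 0.00992), where 2.15% of all genes passed. With finer clusters the log2 change was 0.34, and with control library 3 as the only control, which shares the Cell Ranger version of the *Atoh1*S193A/- libraries, it was 0.65 (adjusted p = 0.999 in edgeR, which takes the lone control to vary like the other group).

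The *Atoh1*S193A/- libraries also lay above the controls for *Slit2* in migrating neuron-1-like cells (42.4, 45.1 and 42.4 against 32.8, 37.2 and 37.4 CPM) and in migrating neuron-2-like cells (33.4, 28.1 and 34.6 against 20.3, 26.2 and 23.4 CPM). The edgeR adjusted p was 0.999 and 0.984 there, and 0.547 and 0.374 with the block. The groups overlapped in progenitor-like cells (112, 177 and 162 against 132, 129.5 and 89.6 CPM) and in differentiated neuron-like cells. In *Atoh1*S193A/- intermediate progenitor-like cells, the summed level of 5 roof plate markers, none at 0, was 100.3 to 169 CPM against 58.6 to 75.1 CPM in controls. *Ccnd1* was at 113 to 259 CPM against 55.9 to 88.5 CPM. The part of these levels in the *Slit2* difference was not tested.

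*Robo2* in intermediate progenitor-like cells was at 200.1, 188 and 151 CPM in controls and 125, 175 and 121 CPM in *Atoh1*S193A/-, lower in the *Atoh1*S193A/- member of all 3 littermate pairs. The log2 change was −0.38 (SE 0.14, adjusted p = 0.670 in edgeR), and −0.38 with the block (SE 0.093, adjusted p = 0.0433). With finer clusters the log2 change was −0.01. The intermediate progenitor-like cells of *Atoh1*S193A/- embryos were placed earlier in pseudotime in all 3 littermate pairs, at mean percentile ranks of 25.2, 28.6 and 25.5 against 29.4, 31.0 and 26.3 in controls. Over these bins the control mean of *Robo2* went from 139.7 CPM in bin 3 to 235 CPM in bin 4. Within bin 3 *Robo2* was at 161, 129 and 129.7 CPM in controls and 119, 139 and 110.1 CPM in *Atoh1*S193A/-, and within bin 4 at 258, 213 and 232 against 208, 219 and 231 CPM, so the genotypes overlapped in both. *Slit2* within bin 3 was at 44.0, 61.9 and 54.2 CPM against 64.0, 77.9 and 87.4 CPM, with no overlap, and within bin 4 at 39.0, 49.7 and 34.7 against 45.1, 61.1 and 48.8 CPM, with overlap. The part of the placement in either difference was not tested further. The other 6 genes tested in these cells did not pass in either fit.

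**Figure D5:**
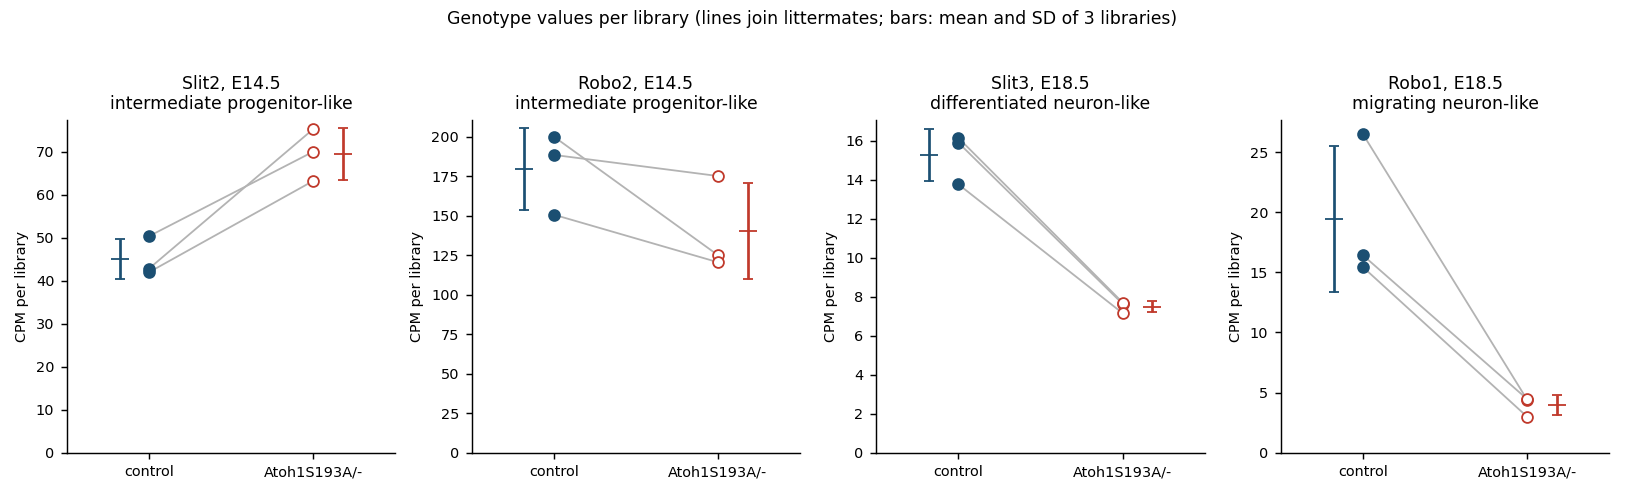
Level per library (CPM, vertical axis) in control and *Atoh1*S193A/- (horizontal axis). The panels show *Slit2* and *Robo2* in E14.5 intermediate progenitor-like cells, *Slit3* in E18.5 differentiated neuron-like cells and *Robo1* in E18.5 migrating neuron-like cells. Lines join littermates, and bars give the mean and SD. In edgeR without the block the 2 E14.5 changes were not called, and the called log2 changes were *Robo1* at −2.23 and *Slit3* at −1.02.

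At E18.5, 1 of 7 genes tested passed in migrating neuron-like cells, where 0.0621% of all genes passed, and 1 of 7 in those called differentiated neuron-like, where 0.178% did. Intermediate progenitor-like cells had 2 control libraries and 1 *Atoh1*S193A/- library, which the fit takes to vary like the controls, so the 0 of 7 passing there, beside 0.107% of all genes, says little. With the block the same 2 calls were made, where 0.166% of all genes passed in migrating neuron-like and 0.783% in differentiated neuron-like cells.

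*Robo1*, a Slit receptor gene, was lower in E18.5 migrating neuron-like cells of *Atoh1*S193A/- embryos, at 4.39, 2.98 and 4.45 CPM against 26.5, 15.4 and 16.4 CPM in controls. The groups did not overlap, and before thinning 11 of 205 cells held a *Robo1* UMI against 42 of 269. Median depth was 13702 to 16883 UMIs per cell in *Atoh1*S193A/- libraries and 13899 to 19130 in controls. The log2 change was −2.23 (SE 0.38, adjusted p = 0.00798 in edgeR) and −2.33 with the block (adjusted p = 0.000459). The call rested on 13 UMIs against 89. It was lost in DESeq2 (−2.26, adjusted p = 0.0891), without doublet removal (−1.53, 0.0832), and without control library 1 (0.0986), *Atoh1*S193A/- library 1 (0.0820) or *Atoh1*S193A/- library 2 (0.146). Other E18.5 cells did not share the direction. Mean *Robo1* was 27.0 CPM in *Atoh1*S193A/- against 17.6 CPM in control ePN3-like cells, with no overlap. With overlap, it was 6.96 against 5.01 CPM in ePN2-like, 12.7 against 18.9 CPM in ePN1-like and 14.6 against 13.0 CPM in all differentiated neuron-like cells. None of these was called.

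The migrating neuron-like cells fell into 2 clusters, and most *Robo1* UMIs of the controls were in the smaller, cluster 8. There *Robo1* was at 50.2, 31.0 and 24.1 CPM in controls and 6.30, 8.70 and 9.87 CPM in *Atoh1*S193A/-, with a log2 change of −2.20 (SE 0.47, adjusted p = 0.119 in edgeR, 0.0215 with the block). *Robo1* was the 1 gene of the list called in cluster 8 with the block, where 0.0509% of all genes were called, and 0 were called without it, beside 0.0102%. In the other cluster, cluster 2, it was at 7.35, 7.19 and 10.6 CPM against 3.13, 0 and 2.87 CPM, with no overlap, from 23 and 5 UMIs. *Robo1* was under the limit on detected cells there and was not tested. Of the 6 genes of the list that were tested in cluster 2, 0 were called (all genes 0%, and 0.0414% with the block). Cluster 8 made up 35.0% to 45.5% of these cells in controls and 23.8% to 39.2% in *Atoh1*S193A/-. *Nhlh1* in migrating neuron-like cells was at 87.9 to 106 CPM against 51.2 to 80.5 CPM. Their part in the *Robo1* difference was not tested beyond the fit within cluster 8. *Robo2* (107, 125 and 102 against 132, 93.9 and 105 CPM) and *Robo3* (199, 149 and 216 against 275, 259 and 117 CPM) overlapped between the genotypes in the same cells.

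*Slit3* was lower in E18.5 differentiated neuron-like cells of *Atoh1*S193A/- embryos, at 7.64, 7.71 and 7.16 CPM against 15.9, 16.1 and 13.8 CPM. The groups did not overlap, with a log2 change of −1.02 (SE 0.16, adjusted p = 0.00983 in edgeR, 0.000947 with the block). Before thinning, a *Slit3* UMI was found in 86 of 877 cells against 180 of 1047. These were 8.54%, 12.7% and 9.73% of cells in *Atoh1*S193A/- libraries 1, 2 and 3 and 16.1% to 19.6% in the controls. Over the joined *Atoh1*S193A/- cells the share was just under the limit of 10%. *Slit3* was thus tested only through the controls, where it is high. Median depth was 16832 to 19910 UMIs per cell in *Atoh1*S193A/- libraries and 16564 to 23148 in controls. Leaving out *Atoh1*S193A/- library 1, 2 or 3 or control library 2 gave an adjusted p of 0.0506, 0.0535, 0.0928 and 0.0605.

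ePN1-like cells, which had high *Slit3* in the controls, made up 30.6%, 30.9% and 28.4% of differentiated neuron-like cells in controls and 11.4%, 12% and 11.7% in *Atoh1*S193A/-. Within ePN1-like cells *Slit3* was at 11.0, 13.4 and 15.4 CPM against 22.7, 33.5 and 30.2 CPM, a log2 change of −1.10 (SE 0.32, adjusted p = 0.998 in edgeR). Within ePN3-like cells it was at 17.8, 15.1 and 12.7 CPM against 24.0, 19.3 and 18.4 CPM, a log2 change of −0.45 (SE 0.21, adjusted p = 1.00). The *Atoh1*S193A/- libraries lay below the controls in both subtypes, and neither passed. In ePN1-like, ePN2-like and ePN3-like cells 0 genes of the list passed in either fit, where 0%, 0% and 0.00974% of all genes passed without the block and 0.0202%, 0.17% and 0.0779% with it. The summed level of 5 inhibitory neuron markers in differentiated neuron-like cells was 27.2 to 27.9 CPM in controls and 47.5 to 49.5 CPM in *Atoh1*S193A/-. These markers include *Gad2*, which is also a marker of the E18.5 migrating neuron-like state, so the sum is not specific to inhibitory neurons. Its part in the *Slit3* difference was not tested.

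The difference between the genotype changes at E18.5 and at E14.5 in differentiated neuron-like cells was tested for 8 of the genes. None passed in edgeR, 1 had an unadjusted p under 0.05, and 0% of all genes passed. With the block 0 of the 8 passed as well, beside 0.0571% of all genes. That gene was *Slit3*, at −2.31 (SE 0.48, adjusted p = 1.00), which rests on 5 and 12 UMIs at E14.5.

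Over all kept cells, whatever their cluster, *Slit2* was at 44.9, 41.2 and 37.4 CPM in E14.5 controls and at 65.2, 63.5 and 69.8 CPM in *Atoh1*S193A/-. The groups did not overlap. The log2 change was 0.66 (SE 0.093, adjusted p = 0.155 in edgeR, 0.00343 with the block and 9.61e-07 in DESeq2). Of all genes, 0.00977% passed without the block and 17.8% with it. *Robo2* was at 129.9, 149 and 136 CPM against 107, 129.9 and 118 CPM, a log2 change of −0.25 (adjusted p = 0.403, and 0.00819 with the block). At E18.5, 0 of 8 genes passed over all cells and 0 had an unadjusted p under 0.05, where 0% of all genes passed. With the block 0 of the 8 passed, beside 0.374%.

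The mix of E14.5 cells differed between the genotypes in populations with high *Slit2*. PN progenitor-like cells were 1.26% to 2.22% of kept cells in controls and 4.61% to 7.78% in *Atoh1*S193A/-. A cluster led by *Sparc*, *Dkk3*, *Rspo1* and *Wnt9a*, with *Slit2* at 229.6 ± 8.81 CPM in controls, was 1.87% to 2.80% and 5.02% to 6.94%. A cluster led by *Rspo1* and *Wnt1*, with *Slit2* at 197 ± 18.3 CPM, was 1.39% to 1.90% and 3.42% to 4.42%. The part of these shares in the difference over all cells was not tested.

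The rest of the pathway was read from 32 partner genes, ligands, receptors and adaptors of the Slit-Robo and netrin pathways, of which 31 were in the matrices. None passed in any of the genotype comparisons in edgeR. *Ntn1*, the netrin-1 gene, had a log2 change of −1.12 (SE 0.34, adjusted p = 0.999) in E14.5 migrating neuron-1-like cells. *Neo1*, a relative of *Dcc*, had 0.86 (SE 0.26, adjusted p = 0.401) in intermediate progenitor-like cells, and *Unc5a* −0.62 (SE 0.25, adjusted p = 0.999) in migrating neuron-1-like cells. With the littermate block, *Rgma*, a neogenin ligand gene, was higher by 0.76 (adjusted p = 0.00179) and *Srgap3*, a Robo adaptor gene, by 0.54 (adjusted p = 0.00296) in E14.5 progenitor-like cells, where 1.38% of all genes passed.

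Between E14.5 and E18.5 control differentiated neuron-like cells, 18 of 27 partner genes tested passed, 12 higher and 6 lower, beside the 56.2% of all genes. *Ntn1* rose by 2.08, *Flrt1* by 3.29, *Neo1* by 1.42 and *Unc5a* by 1.21 on the log2 scale. *Rgmb* fell by 2.49 and *Rgma* fell by 1.88, and both encode neogenin ligands. From E18.5 to P5, 13 of 27 passed, 2 higher (*Nell1* by 1.91 and *Flrt1* by 1.45) and 11 lower, beside 50.3% of all genes. *Ntn1* fell by 0.74, *Unc5a* fell by 0.66 and *Draxin*, which encodes a secreted netrin-binding protein, fell by 1.5.

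Genes whose level followed a member most closely were found by Pearson correlation of log2(CPM + 1) over 15 values, 5 states in 3 E14.5 control libraries, among 7692 genes. The points share libraries and states, so the coefficients describe likeness only. *Lhx1* followed *Robo2* (r = 0.98), *Klhl35* followed *Robo3* (r = 0.98) and *Enox2* followed *Dcc* (r = 0.99). *Ppwd1* followed *Slit2* (r = 0.99), *S100a6* followed *Slit1* (r = 0.97), *Hspa12a* followed *Unc5d* (r = 0.98), *Epb41* followed *Robo1* (r = 0.94) and *Chchd4* followed *Unc5c* (r = 0.90). *Slit3* and *Unc5b* stayed under 20 CPM in every state mean and were not matched.

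The levels were then set beside all control clusters, PN-like and other. At E18.5 the highest *Robo3* was in a PN-like cluster led by *Crabp1* and *Ren1*, at 472 ± 33.5 CPM with 246 cells. The next, also PN-like, had 6.39 CPM and the median of 27 clusters was 0.41 CPM. At E14.5 the 2 highest clusters were PN-like, at 476 and 447 CPM. Each of these means is over the only 2 control libraries that had at least 20 cells in the cluster. The next 2, outside the PN-like cells, were at 329 and 325 CPM (n = 3), and the median was 11.9 CPM over 35 clusters. *Unc5c* at E18.5 had a median of 235 CPM over the clusters, close to its PN differentiated neuron-like level. Its highest value was 1135 ± 91.8 CPM in a cluster led by *Lmx1a* and *Bcl11b*.

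At P5 *Robo1* was at 57.4 ± 3.96 CPM (n = 2) in a cluster led by *Gja1* and *Aqp4*, genes of astrocytes, against a median of 8.29 CPM over 26 clusters. *Unc5b* was at 75.6 ± 4.42 CPM in a cluster led by *Mag* and *Cldn11*, genes of oligodendrocytes. *Robo1* was higher still in a cluster of 85 cells led by *Nwd1* and *Atp13a4* at 178 ± 61.8 CPM. That cluster had a median of 2096 UMIs per cell. Clusters of such low depth also ranked high for *Slit2*, *Robo2* and *Unc5d*, with medians of 1912 and 2703 UMIs per cell at E14.5 and P5.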

How the data were processed

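The authors processed the reads with Cell Ranger 5.0.1 per the labels, against mm10, and deposited filtered UMI count matrices; per the file headers E14.5 control libraries 1 and 2 came from version 3.1.0. Gene positions are those of the GRCm38 annotation. The 10 genes, the partner and marker lists and the tests were chosen with earlier results of these data known. Barcodes needed at least 1000 genes and under 5% mitochondrial UMIs, and in each library the 7.5% with the highest Scrublet scores were dropped as doublets. After scaling to 10000 UMIs a cell, each stage was clustered with scanpy 1.11.5 (2000 variable genes, 30 principal components, 15 neighbours, Leiden resolution 1.0) without the described genes. Clusters were named from the study's markers, less *Robo2* and *Robo3*, which are among them. UMIs were summed per library and state (at least 10 cells) and tested with edgeR 4.0.16 (quasi-likelihood, TMM, robust) over genes detected in 10% or more of either genotype's cells. Genes passed at a Benjamini-Hochberg adjusted p of 0.05 and an absolute log2 change over 0.25. DESeq2 1.42.0 was an alternative. The test was tried on simulated counts of 9840 genes, 200 of them changed, with 20 false calls. Replicates were separate embryos, or separate pools at P5. *Atoh1*S193A/- embryos and their littermate controls carry the same replicate number, and same-numbered libraries deviated together, with correlations of 0.225 to 0.771 at E14.5 and 0.0662 to 0.603 at E18.5. All 10 genes were described. A change was described singly where it passed in the fit with or without this block, or where genotypes did not overlap in 3 or more E14.5 states. Partner genes were named where they passed, in part, or as *Ntn1*, *Neo1* and *Unc5a* where none did.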

Additional observations from a re-analysis of the deposited data

How the results depend on the processing

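The 10 genes gave 0 calls between the genotypes in the E14.5 states, and 2 with the replicate block of littermate pairs. In the E18.5 states they gave 2 calls, 1 in DESeq2, 1 without doublet removal, and 0 to 2 when 1 library was left out. Over all kept E14.5 cells they gave 0 calls, 1 in DESeq2 and 2 with the replicate block. From E18.5 to P5 they gave 4 calls, and 2 without either P5 library; over the libraries left out the count ran from 2 to 4. Apart from *Robo1* within E18.5 cluster 8, called only with the block (adjusted p = 0.0215), the block changed no other call of these genes. The *Slit2* change in E14.5 differentiated neuron-like cells (0.10 in all libraries) reversed to −0.047 without E14.5 control library 1 and was 0.27 without control library 2; the cause was not tested. Of the values for single genes, 129 kept direction and side of the threshold with 1 library left out, 18 lost the call and 1 reversed. Under the other settings 151 kept it, 8 lost it and 5 gained it. These settings were size factors, DESeq2, no filter on the share of cells, the block, a 10% mitochondrial limit, no doublet removal, only Cell Ranger 5.0.1 libraries, Leiden resolution 2.0, and, chosen after seeing the data, single subtypes or clusters and the removal of E14.5 littermate pair 2.

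Counts over all genes moved far more. In E14.5 intermediate progenitor-like cells 7 genes passed, 197 with the block and 48 in DESeq2, and over all kept E14.5 cells 1, 1827 and 249. Low counts limit *Slit3* and *Unc5b* at E14.5, *Slit1* in later neurons, and the early states at E18.5, where no block was fitted for intermediate progenitor-like cells.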

Other observations

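A few partner genes passed in single comparisons with the littermate block. In *Atoh1*S193A/- intermediate progenitor-like cells at E14.5, *Fyn*, a kinase gene downstream of DCC, was lower by a log2 change of −0.44 with the littermate block (adjusted p = 0.0277 in edgeR), the 1 of 23 partner genes called there, beside 2.15% of all genes, and it did not pass without the block. In E18.5 migrating neuron-like cells *Rgmb* was at −0.37 with the block (adjusted p = 0.0407), the 1 of 21 called beside 0.166% of all genes, and did not pass without it. Over all kept E14.5 cells 5 of 25 partner genes passed with the block, all higher in *Atoh1*S193A/-, where 17.8% of all genes passed: *Dock1* (0.87), *Draxin* (0.55), *Flrt2* (0.55), *Dag1* (0.29) and *Abl1* (0.27). Over all kept E18.5 cells *Ntn1* was lower by a log2 change of −0.39 (adjusted p = 0.0449 with the block), the 1 of 27 called beside 0.374% of all genes.

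*Slit3* at E18.5 was highest in a cluster led by *Lmx1a* and *Bcl11b*, at 72 ± 3.54 CPM (n = 3), and the same cluster was the highest for *Unc5c*. *Slit1* was highest at E18.5 in a cluster led by *Bcl11b* and *Kcnip4*, at 64.6 ± 11.2 CPM (n = 3). *Slit1* was at or below 2.53 CPM in every control library of the E18.5 PN-like subtypes.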
